A study of Mus musculus with 4 samples.

Results

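The genes described here are 10 members of the insulin-like growth factor (IGF) axis, of 32287 genes counted in the fetal mouse penis. They are the ligands *Igf1* and *Igf2*, the receptor *Igf1r*, the binding proteins *Igfbp2*, *Igfbp3*, *Igfbp4*, *Igfbp5* and *Igfbp7*, and the metalloproteases *Pappa* and *Pappa2*. They were found by symbol in the gene list of every library. The set was chosen by earlier results of the same contrast between genotypes, so its values below are a description and carry no p-value.

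The single-cell mRNA of penises from male embryos at embryonic day 16.5 was counted in 4 libraries, 2 per genotype. Both groups carried 1 floxed copy of a diphtheria toxin (DTA) gene in the Rosa26 locus. Control (DTA-) embryos had no *Nr5a1-Cre*, and GEO's labels call their genotype WT. Ablated (DTA+) embryos carried the *Nr5a1-Cre* transgene, which switches the toxin on in cells that have expressed *Nr5a1*, and, by the study's breeding scheme, a Cre-dependent tdTomato reporter. The transgene is not limited to the penis. The study's methods describe ablation in the testes and a complete loss of the adrenals, so a change in the ablated penis cannot be told apart from one that follows the loss of hormones made elsewhere. The purpose of the comparison was to learn how the cells of the penis differ after depletion of the *Nr5a1* lineage at the time of urethra closure. The labels do not say that the 2 libraries of a genotype came from separate animals, and p-values measure the spread between these libraries.

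IGF1 and IGF2 are secreted growth factors that act through the receptor tyrosine kinase IGF1R to promote cell growth, proliferation and survival. Outside the cell they are held by IGF-binding proteins, which carry the ligands and, depending on the protein and its place, withhold them from the receptor or deliver them to it. The pappalysins PAPP-A and PAPP-A2 cut binding proteins and thereby release ligand, with IGFBP4 and IGFBP5 among the known substrates of PAPP-A and IGFBP3 and IGFBP5 among those of PAPP-A2. Stanniocalcins inhibit both proteases. IGFBP7 binds IGFs weakly and is known as a product of blood vessels. The IGF axis is a main driver of fetal growth, in which IGF2 is the abundant ligand before birth.

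The libraries held 11343 to 12580 cells and 50779551 to 73577028 UMIs (unique molecular identifiers, 1 per captured mRNA molecule). After filtering, 31132 of 47040 cells were kept, 6573 to 8810 per library, with a median of 3551 to 4700 UMIs per cell. The first control library was sequenced deepest, and 52.2% of its cells were kept, against 67.8% to 77.7% in the other 3. The upper UMI limit was passed by 21.4% of its cells and by 9.98% to 11.2% of theirs. Libraries shared 31 to 48 cell barcodes per pair. *Xist* had 5 to 9 UMIs per library and the Y-linked *Ddx3y* 4235 to 4760. The tdTomato sequence had 0 UMIs in both control libraries and 3579 and 3140 UMIs in the ablated libraries. *Nr5a1* itself had 1 or 2 UMIs in each library. Clusters were named only from fixed marker lists, and 15 populations received a name. Of these, 6 were mesenchymal: periurethra (*Foxl2*, *Hhip*), corpus cavernosum (*Sox9*, *Col2a1*), distal glans (*Msx1*, *Inhba*), subdermal prepuce (*Cd34*, *Dpt*), general prepuce (*Crabp1*, *Lum*) and osteogenic (*Dlx5*, *Alpl*). Each name stands for a marker profile like that of the tissue named, rebuilt here, and may not match the study's own clusters. Levels are given as counts per 1000000 UMIs (CPM) of a population summed within 1 library, on TMM-scaled library sizes where the population was fitted, so 1 value stands for 1 library. In such sums, fewer cells that express a gene and less of its mRNA per cell cannot be told apart.

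Some of the members lie close to another gene of the IGF axis. *Igfbp2* (chromosome 1, 72824503 to 72852474, plus strand) and *Igfbp5* (72857932 to 72874884, minus strand) are separated by 5457 bases in the build GRCm38. *Igfbp3* (chromosome 11, 7206086 to 7213923, minus strand) lies 3539 bases from *Igfbp1*, and *Igf2* (chromosome 7, 142650766 to 142666816, minus strand) lies 72622 bases from *H19*. *Igfbp4* lies on chromosome 11 (99041244 to 99054392, plus strand), *Igf1* on chromosome 10 (87858265 to 87937042, plus strand), *Igf1r* on chromosome 7 (67952827 to 68233668, plus strand), *Igfbp7* on chromosome 5 (77349240 to 77408041, minus strand), *Pappa* on chromosome 4 (65124174 to 65357509, plus strand) and *Pappa2* on chromosome 1 (158711727 to 158980490, minus strand). All 10 are protein-coding in GENCODE vM21, with the identifiers used in the count files.

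The promoters of the 3 binding protein genes with the broadest differences between the genotypes are printed to show where they hold a hormone receptor core site. Each covers 250 bases before to 50 bases after the start of transcription in RefSeq (GRCm38.p6), read 5′ to 3′ on the strand of the gene. For *Igfbp2* it is the first of 2 listed. Capitals mark the letters TGTTCT or, on the other strand, AGAACA, the core site known to be bound by androgen and glucocorticoid receptors.
Igfbp2, chr1:72824230-72824529, plus strand: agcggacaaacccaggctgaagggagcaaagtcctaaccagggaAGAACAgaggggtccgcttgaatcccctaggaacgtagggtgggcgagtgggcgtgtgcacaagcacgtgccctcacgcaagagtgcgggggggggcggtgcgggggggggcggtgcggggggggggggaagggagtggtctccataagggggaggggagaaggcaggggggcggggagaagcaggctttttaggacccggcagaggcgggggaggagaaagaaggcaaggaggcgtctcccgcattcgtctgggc
Igfbp5, chr1:72874816-72875115, minus strand: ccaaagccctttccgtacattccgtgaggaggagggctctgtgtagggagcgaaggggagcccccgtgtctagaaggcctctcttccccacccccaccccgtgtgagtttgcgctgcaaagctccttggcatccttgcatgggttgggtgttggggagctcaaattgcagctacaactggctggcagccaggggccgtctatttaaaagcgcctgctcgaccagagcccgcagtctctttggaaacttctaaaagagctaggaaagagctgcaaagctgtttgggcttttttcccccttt
Igfbp3, chr11:7213874-7214173, minus strand: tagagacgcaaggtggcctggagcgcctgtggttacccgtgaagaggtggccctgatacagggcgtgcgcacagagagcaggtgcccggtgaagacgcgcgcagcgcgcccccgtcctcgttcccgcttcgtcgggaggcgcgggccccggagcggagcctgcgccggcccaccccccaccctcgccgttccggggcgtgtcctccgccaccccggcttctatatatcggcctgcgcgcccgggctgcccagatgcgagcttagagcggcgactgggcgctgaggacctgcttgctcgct
The core site stood once in the *Igfbp2* promoter, with its first base at -206 from the start, and not in those of *Igfbp5* and *Igfbp3*. These letters occur in 6233 of 32851 promoters of the same length (18.97%). The full site (AGAACA, any 3 bases, then TGTTCT, which includes the core site) occurs in 3 promoters and in none of the members. The letters TATAAA, searched on both strands, were found among the members only in the *Igfbp4* promoter, at -28, and in 4473 promoters overall (13.6%). The RefSeq table holds promoters for 9 of the 10 members (all but *Pappa*) and lists 4 for *Igf2*, of which the first holds the core site at -85. A match is a description of letters, not a bound site.

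In the control penis, each member had its own distribution over the 15 named populations. These levels describe the clusters and were not tested, because 8 of the 10 members (not *Igf1r* or *Igfbp4*) were among the variable genes from which the clusters were made. *Igf1* was highest in the osteogenic mesenchyme (371 ± 245 CPM, mean ± SD, n = 2) and the periurethra (317 ± 171 CPM), whose ranges overlapped, followed by the general prepuce (214 ± 66.5 CPM) and macrophages (170.3 ± 64.9 CPM), which overlapped as well. *Igf2* was highest in the subdermal prepuce (550.3 ± 101 CPM), smooth muscle (479 ± 82.2 CPM) and general prepuce (414 ± 153 CPM), again with overlapping values, and lowest in neural and glial cells (20.4 ± 3.26 CPM). At resolution 0.4 both ligands were highest in the subdermal prepuce, a name that fell on a different set of cells there. In macrophages *Igf2* was at 29.9 ± 18.8 CPM. *Igf1r* was the most even member. It ranged from 30.5 CPM in macrophages to 229.7 ± 34.3 CPM in the periurethra, and the next lowest population, pericytes, was at 82.5 ± 17.5 CPM.

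Among the binding proteins, *Igfbp2* was highest in smooth muscle (2942 ± 165 CPM), the periurethra (2222 ± 160.0 CPM) and the subdermal prepuce (1725 ± 113 CPM), and these 3 did not overlap. *Igfbp3* was highest in the osteogenic mesenchyme (1404 ± 129 CPM), well above the general prepuce (646 ± 341 CPM) and endothelium (547 ± 70.6 CPM), which overlapped. *Igfbp4* was also highest there (915 ± 54.01 CPM), followed by the distal glans (705 ± 15.3 CPM) and subdermal prepuce (664 ± 52.1 CPM). *Igfbp5* was highest in the subdermal prepuce (1329.6 ± 563 CPM), smooth muscle (1176 ± 343 CPM), epithelium (1037 ± 391 CPM) and osteogenic mesenchyme (956 ± 32.00 CPM), and the wide spread of the first 3 leaves their order undefined. *Igfbp7* differed from the others in being vascular and neural. It was at 1647 ± 98.5 CPM in endothelium, 1123 ± 18.8 CPM in pericytes and 842 ± 176 CPM in neural and glial cells, against 316 ± 6.21 CPM in the distal glans, the highest of the mesenchymal populations, and 12.2 ± 1.12 CPM in the general prepuce. The proteases were low. *Pappa* was highest in the general prepuce (51.4 ± 21.2 CPM) and osteogenic mesenchyme (41.2 ± 17.2 CPM), which overlapped, and *Pappa2* in the distal glans (88.00 ± 32.8 CPM) and corpus cavernosum (52.01 ± 17.9 CPM), with the general prepuce near 0 (1.35 ± 1.91 CPM).

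**Figure D1:**
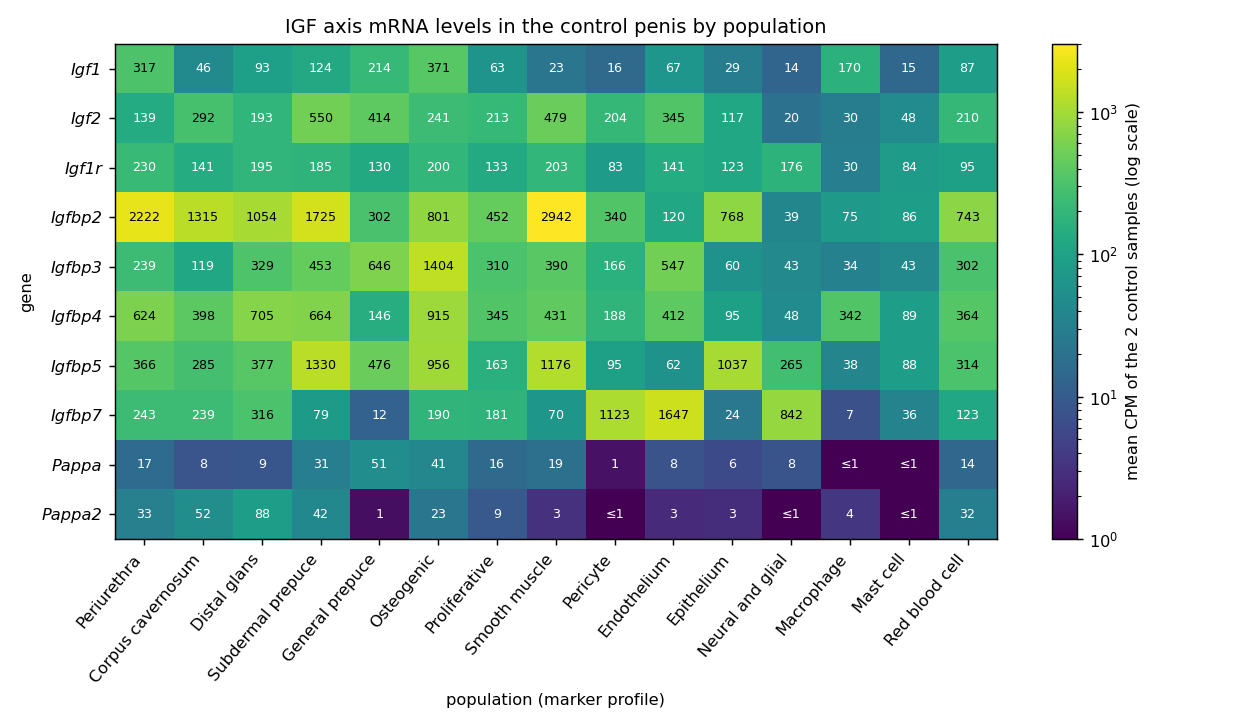
Level of the 10 members in the 15 named populations of the control penis, as the mean CPM of the 2 control libraries, printed in each cell and coloured on a log scale. *Igfbp7* is highest in endothelium, pericytes and neural and glial cells, *Igf1* is high in osteogenic and periurethral mesenchyme, general prepuce and macrophages, and *Igf1r* is the most even row.

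Free mRNA in droplets, or doublets that stayed in, may set a floor under these levels, and the part of neither was measured. Macrophages and mast cells are not of mesenchymal origin. As means of the controls in these 2, in that order, *Igfbp2* was at 74.9 and 86.00 CPM and *Igfbp5* at 38.2 and 88.4 CPM. Values of this size in other populations cannot be told apart from such a background. With every cell thinned to 1000 UMIs, 69.7% and 71.0% of control periurethral cells had an *Igfbp2* UMI, against 4.17% and 1.59% of control macrophages. Without thinning these shares were 89.7% and 89.9% in the periurethra (median 4931 and 3899 UMIs per cell) and 6.25% and 11.1% in macrophages (median 5320 and 5152 UMIs).

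The comparison of ablated with control penises used UMI counts summed per library and population, fitted over all genes with edgeR's quasi-likelihood test, and a gene was called at a Benjamini-Hochberg adjusted p under 0.05. Of 140 pairs of a member and a tested named population, 117 passed the filter on low counts and 34 were called, 13 higher and 21 lower in the ablated penis. The 6 mesenchymal populations held 29 of these, of 59 pairs fitted. The largest numbers were 7 of 10 members called in the osteogenic mesenchyme (2.21% of all genes tested there were called), 6 of 10 in the distal glans (4.86% of all genes) and 6 of 10 in the subdermal prepuce (11.2%). The corpus cavernosum had 5 of 10 (9.42%), the periurethra 4 of 10 (3.66%) and the general prepuce 1 of 9 (0.675%). Proliferative cells had 1 of 10 (0.318%), and the sum of all kept cells 1 of 10 (0.488%). Because the members were picked from this contrast, nothing is read from these counts against the backgrounds. *Igfbp2*, *Igfbp5*, *Igf1* and *Pappa2* were lower wherever they were called, and *Igfbp3*, *Igf1r*, *Igfbp4*, *Igfbp7* and *Pappa* higher. *Igf2* was called once, as lower.

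**Figure D2:**
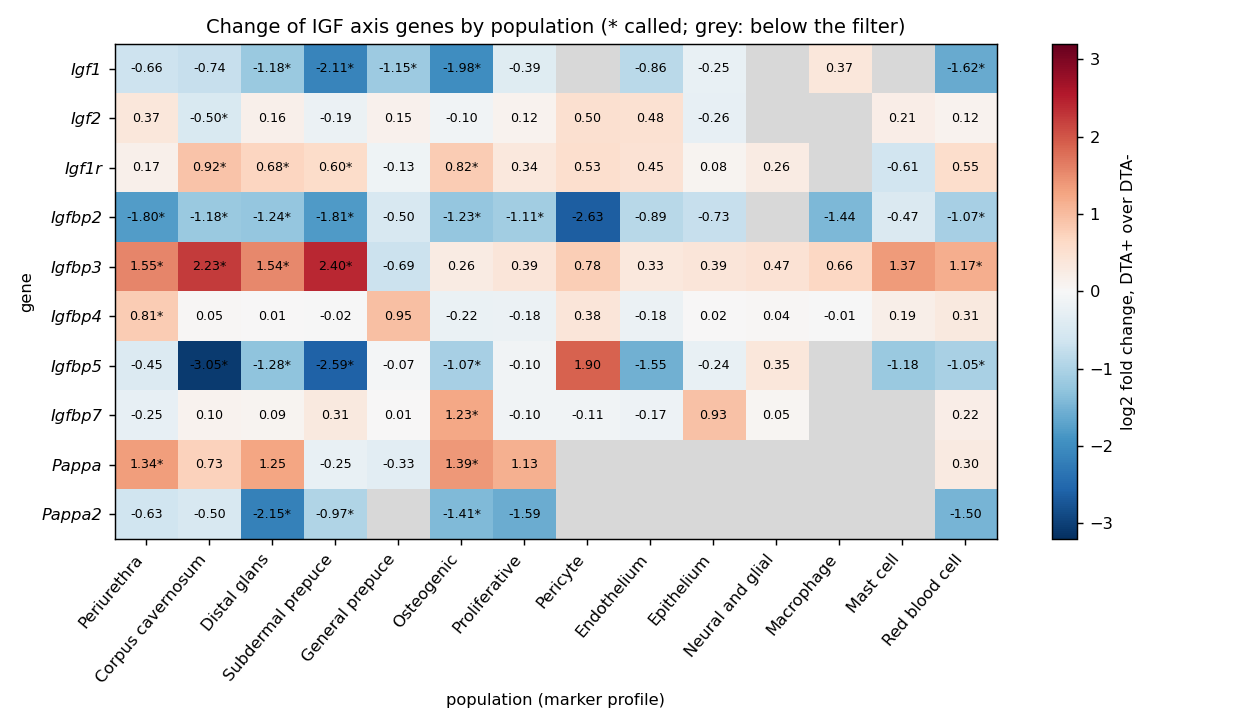
Log2 fold change, ablated (DTA+) over control (DTA-), of each member in each of the 14 tested named populations, with a star where the gene was called in the fit over all genes and grey where it was below the filter. Every starred value of *Igfbp2*, *Igfbp5*, *Igf1* and *Pappa2* is negative and every starred value of *Igfbp3* and *Igf1r* is positive.

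*Igfbp2*, which binds IGF2 with high affinity, was the member with the most widespread difference. In the periurethra it was at 2335 and 2109 CPM in the control libraries and 716 and 566 CPM in the ablated libraries, a log2 fold change of -1.80 ± 0.16 (SE). In the subdermal prepuce it fell from 1805 and 1645 CPM to 574 and 408 CPM (-1.81 ± 0.17). Both ablated libraries lay far below both control libraries in each of these tissues. Corpus cavernosum had 1432 and 1199 CPM in controls and 583 and 579.9 CPM after ablation (-1.18 ± 0.14), and distal glans 1189.5 and 918 against 445 and 449 CPM (-1.24 ± 0.12). The osteogenic mesenchyme, with 703 and 898 against 363 and 319 CPM (-1.23 ± 0.16), showed a drop of similar size. Proliferative cells followed, with 408 and 496 against 178 and 242 CPM (-1.11 ± 0.17). Only in the general prepuce did the mesenchymal values overlap (372 and 232 against 186 and 240.5 CPM, -0.50 ± 0.23), and there the gene was not called. Its fold change was negative in all 13 named populations in which it was fitted, and the libraries did not overlap in 10 of them. In the whole organ it was at 1165 and 1046 CPM in controls and 385 and 385 CPM in ablated penises (-1.52 ± 0.10), the only member called at that level, whereas 7 members were called there with DESeq2.

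*Igfbp5*, the neighbour of *Igfbp2* on chromosome 1, had the steepest decrease but in fewer places. In the corpus cavernosum it was at 279.7 and 291 CPM in controls and 26.5 and 42.2 CPM after ablation (-3.05 ± 0.19), which brought it to the level of macrophages and mast cells. In the subdermal prepuce the control libraries differed from each other, 932 and 1727 CPM, while the ablated libraries were alike at 221 and 221 CPM (-2.59 ± 0.24). Every ablated value in these 2 tissues lay below every control value. Smaller decreases were seen in the distal glans (331 and 423 against 145 and 165 CPM, -1.28 ± 0.14) and osteogenic mesenchyme (979 and 934 against 434 and 477 CPM, -1.07 ± 0.14). The periurethra, where *Igfbp2* was much lower, had overlapping *Igfbp5* values (298 and 433 against 349 and 190.3 CPM), as did the general prepuce (512 and 439.8 against 364 and 545 CPM). In epithelium, one of the main sites of *Igfbp5*, the genotypes also overlapped (761 and 1314 against 837 and 919 CPM). Pericytes went the other way without being called (117 and 73.04 against 187 and 488 CPM, 1.90 ± 0.45).

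*Igfbp3*, the main IGF carrier of the circulation, was higher in the ablated penis in 4 mesenchymal populations. The largest difference was in the subdermal prepuce, from 465 and 441 CPM in controls to 2273 and 2528 CPM (2.40 ± 0.13), which placed this tissue above the osteogenic mesenchyme. In the corpus cavernosum it was at 137 and 101 CPM in controls and 548 and 574 CPM in ablated penises (2.23 ± 0.16). In both tissues the ablated libraries were close to each other and stood apart from the controls. The periurethra (259 and 218 against 549 and 848 CPM, 1.55 ± 0.20) and distal glans (374 and 283 against 964 and 951 CPM, 1.54 ± 0.13) showed the same direction. The osteogenic mesenchyme, already high, overlapped between genotypes (1313 and 1495 against 1422 and 1933 CPM), and so did the general prepuce, where 1 control library was high (405 and 887 against 395 and 406 CPM). The corpus cavernosum, distal glans and subdermal prepuce thus held less *Igfbp2* and *Igfbp5* and more *Igfbp3* in the same cells' sums. After thinning to 1000 UMIs, 11.7% and 8.53% of control corpus cavernosum cells had an *Igfbp3* UMI, against 34.7% and 32.8% of ablated cells. Without thinning the shares were 33.5% and 23.9% (median 5179.5 and 4418 UMIs per cell) against 52.5% and 53.9% (3174 and 3394.5 UMIs). In macrophages the thinned shares were 2.08% and 1.59% against 3.28% and 1.96%, and the unthinned shares 6.25% and 11.1% against 13.1% and 9.80% (median 5152 to 5760 UMIs). Red blood cells had thinned shares of 15.7% and 22.4% against 35.6% and 38.7%, as high as the corpus cavernosum, and the part of free mRNA in these shares was not tested.

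**Figure D3:**
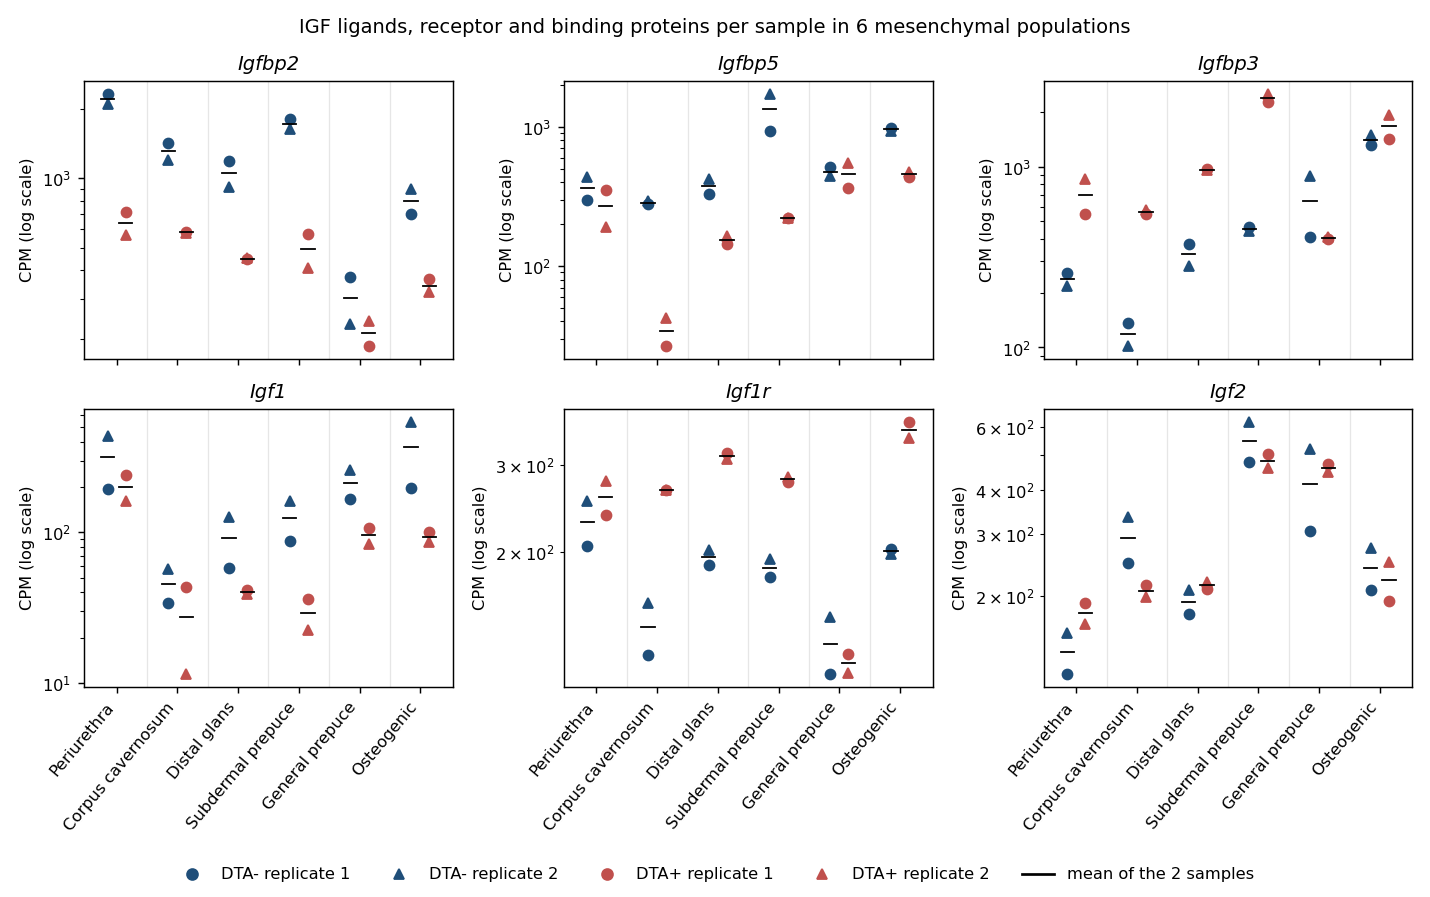
CPM (log scale) of *Igfbp2*, *Igfbp5*, *Igfbp3*, *Igf1*, *Igf1r* and *Igf2* per library in the 6 mesenchymal populations, controls in blue and ablated in red, with a bar at the mean of each pair. *Igfbp2* separates the genotypes in every population but the general prepuce, and *Igfbp5* and *Igfbp3* move in opposite directions in the corpus cavernosum and subdermal prepuce.

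*Igfbp4* and *Igfbp7* were each called in a single named population. *Igfbp4*, which inhibits IGF action until PAPP-A cuts it, was at 707 and 541 CPM in the control periurethra and 1124 and 1059 CPM after ablation (0.81 ± 0.16). The general prepuce had a difference of similar size that was not called (164 and 128 against 228 and 338 CPM, 0.95 ± 0.22). In the corpus cavernosum, distal glans and subdermal prepuce the genotypes overlapped and the fold changes were between -0.02 and 0.05. *Igfbp7* was higher in the osteogenic mesenchyme of ablated penises (243 and 138 against 531 and 377 CPM, 1.23 ± 0.22), a call lost with DESeq2 and at resolution 0.4. In endothelium, its main site, the genotypes overlapped (1717 and 1578 against 1647 and 1281 CPM), as they did in pericytes and in neural and glial cells. The *Igfbp4* call in the periurethra was lost without either control library, at log2 fold changes of 1.01 and 0.63.

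The ligands differed from each other. *Igf1*, the ligand induced by growth hormone, was lower in ablated penises, most in the subdermal prepuce (87.9 and 161 CPM in controls, 35.98 and 22.3 CPM after ablation, -2.11 ± 0.31) and the osteogenic mesenchyme (198 and 544 against 100.3 and 86.6 CPM, -1.98 ± 0.31). The distal glans (58.4 and 127 against 41.5 and 38.9 CPM, -1.18 ± 0.26) and general prepuce (167 and 261 against 107 and 84.3 CPM, -1.15 ± 0.23) were also called. In each of these the second control library was the highest of the 4, and the first control library still lay above both ablated ones. The general prepuce call was lost without the second control library (-0.77) and without the second ablated library (-1.004). With DESeq2 the osteogenic and distal glans calls were lost. Without the upper UMI limit the distal glans and general prepuce calls were lost. In the periurethra *Igf1* overlapped between genotypes (196 and 437 against 239.7 and 161 CPM), and in macrophages it was at 124 and 216 against 194 and 249.9 CPM, with no decrease (0.37 ± 0.30). *Igf2* was called only in the corpus cavernosum (248 and 335 against 214 and 199 CPM, -0.50 ± 0.16), and that call was lost when any library but the first control was left out, at log2 fold changes of -0.55 to -0.26. Over the other 11 populations in which it was fitted, its fold changes lay between -0.26 and 0.50.

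*Igf1r* was higher in ablated penises in 4 mesenchymal populations, with narrow spreads. It was at 124 and 158 CPM in the control corpus cavernosum and 267 and 267 CPM after ablation (0.92 ± 0.15). Osteogenic (203 and 198 against 366 and 340.5 CPM, 0.82 ± 0.15), distal glans (188 and 202 against 317 and 309 CPM, 0.68 ± 0.12) and subdermal prepuce cells (178 and 193 against 277 and 284 CPM, 0.60 ± 0.15) followed. These increases were all under 2-fold. The periurethra (205 and 254 against 238 and 278 CPM) and general prepuce (113 and 148 against 124 and 114 CPM) overlapped. In the subdermal prepuce the call was lost without either ablated library (0.62 and 0.59), and in the osteogenic mesenchyme without the first (0.77).

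The pappalysins diverged from each other in the osteogenic mesenchyme. *Pappa* was at 29.1 and 53.3 CPM there in controls and 129 and 84.5 CPM after ablation (1.39 ± 0.25), from 61 and 76 and 235 and 292 UMIs. *Pappa2* was at 18.1 and 28.8 CPM in controls and 6.57 and 9.84 CPM after ablation (-1.41 ± 0.33), from 38 and 41 and 12 and 34 UMIs. *Pappa* was also higher in the ablated periurethra (15.7 and 17.4 against 56.98 and 28.96 CPM, 1.34 ± 0.32), although this call was lost when any library but the second ablated one was left out, at 0.82 to 1.41. *Pappa2* was lower in the distal glans, its main site (64.8 and 111 against 33.5 and 9.67 CPM, -2.15 ± 0.37), and in the subdermal prepuce (36.3 and 47.98 against 27.9 and 15.9 CPM, -0.97 ± 0.28). The *Pappa2* calls in the distal glans, subdermal prepuce and osteogenic mesenchyme were all lost with DESeq2. In the distal glans the log2 fold change was -3.16 without the first ablated library and -1.37 without the second. The subdermal prepuce call was also lost without the second ablated library (-0.59), and the osteogenic one without the second control (-1.07) or first ablated library (-1.21). In the corpus cavernosum *Pappa2* overlapped between genotypes (39.4 and 64.7 against 52.7 and 20.6 CPM). At the depth of these libraries neither protease could be fitted in pericytes, endothelium, epithelium, neural and glial cells, macrophages or mast cells.

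Subdermal prepuce values rest on cells of different make-up in the 2 genotypes. The population joined cluster 6 (469 and 418 control cells, 433 and 442 ablated cells) with cluster 11 (256 and 836 control, 20 and 8 ablated), and *Igfbp5* itself led the genes that set cluster 11 apart. The unnamed clusters 12 (*Ccn3*, *Akap12*) and 16 (*Iyd*, *C130073E24Rik*, *Akap12*) held mostly ablated cells, 289 and 649 against 90 and 11, and 509 and 272 against 1 and 5. In cluster 6 alone, which was balanced, 7 of 10 members were called (12.6% of all genes), and *Igfbp2* (1685 and 1662 against 621 and 417 CPM, -1.69 ± 0.15) and *Igfbp3* (592 and 631 against 2464 and 2603 CPM, 2.05 ± 0.12) differed nearly as in the whole population. The *Igfbp5* decrease was smaller there (539 and 841 against 215 and 219.8 CPM, -1.66 ± 0.18). *Pappa2* was at 47.1 and 112 against 29.98 and 16.5 CPM (-1.77 ± 0.34) and *Pappa* at 2.64 and 6.94 against 27.5 and 25.7 CPM (2.53 ± 0.39), a higher level that the whole population did not show. With clusters 11, 12 and 16 summed, a grouping chosen after the data were seen, 3 of 10 members were called (3.39% of all genes): *Igfbp2* (-1.91 ± 0.18), *Igfbp5* (1570.0 and 2163 against 739 and 408 CPM, -1.70 ± 0.26) and *Igfbp3* (250.4 and 372 against 599 and 821 CPM, 1.18 ± 0.22). *Igf1* was called in cluster 6 (43.98 and 93.2 against 27.5 and 19.1 CPM, -1.54 ± 0.31) and not in that grouping (500.2 and 196 against 109 and 289.7 CPM, -0.79 ± 0.48). In cluster 12 alone, which was not fitted, *Igf1* was at 1535 and 262 CPM in controls and 249 and 380 CPM after ablation. The first control value there lay above the *Igf1* means of all named populations, and the second came from 11 cells. *Igf1r*, called in the whole population, was called neither in cluster 6 (210.2 and 244 against 293 and 292 CPM, 0.37 ± 0.15) nor in that grouping (0.32 ± 0.19). When the clustering left out the member genes, the name subdermal prepuce fell on 1 cluster of 515 and 413 control and 454 and 467 ablated cells, close in size to cluster 6. Its *Igfbp5* fold change was -1.63, near that of cluster 6. Smooth muscle markers moved with the same population: 7 of 8 were lower in ablated cells without overlap, with summed levels of 199 to 354 CPM in controls and 26.1 to 36.0 CPM after ablation, and their part in these results was not tested. The share of all genes without overlap there was not computed, so nothing is read from that count.

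**Figure D4:**
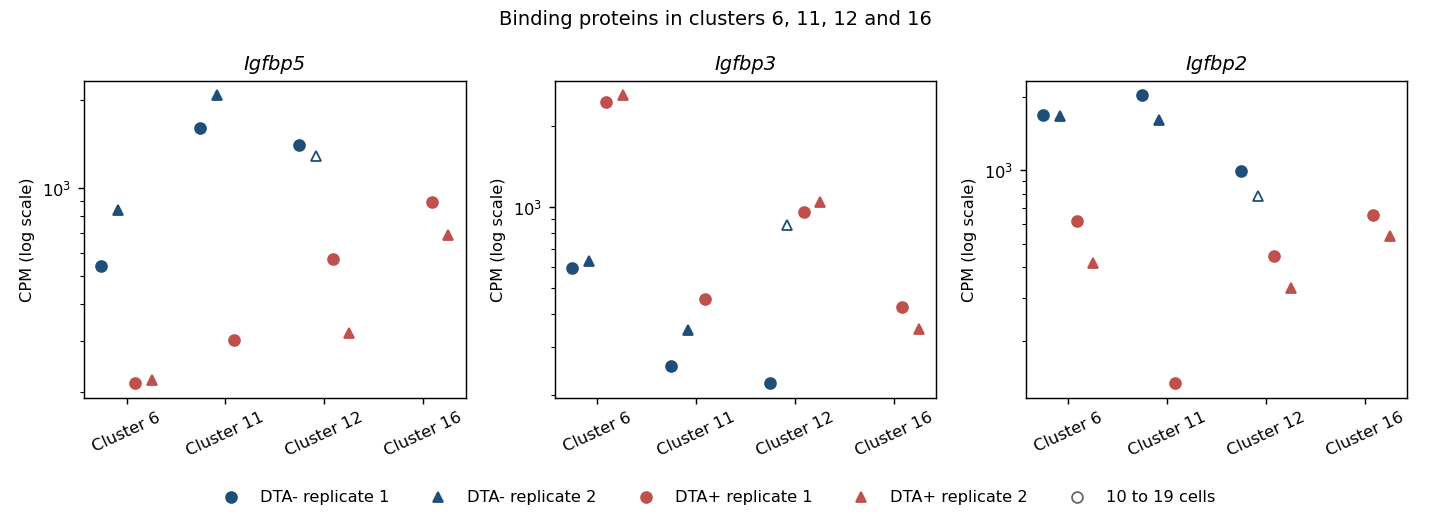
CPM (log scale) of *Igfbp5*, *Igfbp3* and *Igfbp2* per library in clusters 6, 11, 12 and 16, controls in blue and ablated in red. Open marks are sums of 10 to 19 cells and sums of fewer cells are not drawn. In the balanced cluster 6 the genotypes are separate for all 3 genes.

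The other unnamed clusters large enough to be fitted showed parts of the same pattern. Cluster 5 (*Coch*, *Meox2*, *Wif1*) had 5 of 10 members called (9.09% of all genes), with *Igfbp3* at 662 and 634 against 1729.9 and 1316 CPM (1.23 ± 0.13), *Igfbp7* at 308 and 247 against 672 and 612 CPM (1.21 ± 0.14) and *Pappa* at 8.67 and 6.84 against 38.6 and 24.4 CPM (2.03 ± 0.31). Cluster 17 (*Kera*, *Nefl*, *Nefm*) had 3 of 9 (0.607%), among them *Igfbp2* at 1594 and 1711 against 411 and 423 CPM (-1.99 ± 0.13) and *Pappa2* at 42.8 and 96.5 against 14.6 and 16.3 CPM (-2.22 ± 0.41). It also had the highest *Igfbp3* of the fitted populations, at 1749.6 and 1938 CPM in controls and 2906 and 3456 CPM after ablation (0.79 ± 0.12). Cluster 13 (*Rprm*, *Dsc3*, *Ephb1*) had 4 of 9 called (0.477%), including *Igfbp5* at 131 and 202 against 25.5 and 39.7 CPM (-2.18 ± 0.27), and here *Igfbp2* overlapped between genotypes (289 and 174 against 78.6 and 314 CPM). Cluster 0 (*Sostdc1*, *Wnt16*, *Gria2*) had 2 of 10 (2.76%), *Igf1* (151 and 155 against 42.5 and 74.7 CPM, -1.38 ± 0.22) and *Igfbp2* (1414 and 1279 against 508 and 524 CPM, -1.38 ± 0.15).

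Outside the mesenchyme few genes of any kind were called. No member was called in pericytes (0.0217% of all genes), endothelium (0.0177%), epithelium (0%), neural and glial cells (0.0839%), macrophages (0%) or mast cells (0%), by edgeR. At an unadjusted p under 0.05 edgeR gave 227 of 4921 genes tested in epithelium, 171 of 4053 in macrophages and 157 of 3081 in mast cells. DESeq2 called 0, 0 and 4 genes there. These populations were small, with 27 to 151 cells per library, so a difference of the size seen in the mesenchyme may not have been detectable. The libraries of *Igfbp2* were still separate in epithelium (848 and 689 against 539.7 and 387 CPM, -0.73 ± 0.29) and pericytes (518 and 161 against 72.5 and 19.5 CPM, -2.63 ± 0.57). Smooth muscle, with 30 and 10 ablated cells, was not fitted, and *Igfbp2* was at 3059 and 2826 CPM there in controls and 1688 and 2273 CPM in ablated libraries. Red blood cells had 4 of 10 members called (0.345%): *Igfbp2* (847 and 638 against 360.1 and 344 CPM), *Igfbp5* (297 and 331 against 167 and 129 CPM), *Igfbp3* (263 and 341 against 689.6 and 674 CPM) and *Igf1* (74.5 and 100.3 against 32.2 and 21.5 CPM). Each moved in the direction of the sum over all cells (443 and 620.2 against 286 and 245 CPM for *Igfbp5*). Mesenchymal markers were present in this population. Those of the distal glans summed to 896 and 777 CPM in controls and 1024 and 1523 CPM after ablation, with 4 of 7 higher without overlap. General prepuce markers summed to 423 and 527 against 823 and 692 CPM, with 3 of 6 higher. Overlap was seen for those of the periurethra (81.0 and 146 against 127 and 122 CPM), corpus cavernosum (55.1 and 65.0 against 124 and 39.4 CPM) and subdermal prepuce (50.2 and 66.1 against 96.5 and 60.9 CPM). Osteogenic markers were lower (71.3 and 70.7 against 56.7 and 46.6 CPM). The share of all genes without overlap in this population was not computed, so nothing is read from these marker counts. The part of the mesenchymal markers in the 4 calls was not tested.

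Whether the genotype effect differed between the 6 mesenchymal populations was fitted as the interaction of genotype and population, with the library as a block. All 10 members were called (11.1% of all genes), and 9 with the subdermal prepuce left out (5.11%), *Igf1* being the exception. The count fell to 3 without the second control library, with 229 genes called in all. *Igfbp3* had the widest range of fold changes, from -0.69 ± 0.27 in the general prepuce to 2.40 ± 0.13 in the subdermal prepuce. *Igfbp5* ranged from -3.05 ± 0.19 in the corpus cavernosum to -0.07 ± 0.20 in the general prepuce. *Igf2* had the narrowest range, 0.87 on the log2 scale. The general prepuce was the mesenchymal population in which no binding protein was called in the main clustering. It held 361 and 717 control and 849 and 331 ablated cells there. At resolution 1.2 the name fell on 359 and 717 control and 1406 and 642 ablated cells. Among these was a cluster led by *Iyd*, as cluster 16 was, with 1 and 6 control and 543 and 306 ablated cells. Under this name 71 genes were called in the main clustering and 609 at resolution 1.2. The part of this make-up in the ranges that end in the general prepuce was not tested.

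Among 26 other genes of the pathway, 21 could be fitted in at least 1 named population and 10 of these were called in at least 1. Over the 14 tested named populations 30 of 204 pairs were called, 15 higher and 15 lower, against 3.3% of all pairs of a gene and a population tested there. Of the called pairs, 6 were of *Stc1* and 7 of *Socs2*. *Stc1*, which encodes the pappalysin inhibitor stanniocalcin 1, was low in controls and rose in ablated penises, most in the subdermal prepuce (27.5 and 14.3 CPM in controls, 253 and 285 CPM after ablation, 3.72 ± 0.26) and periurethra (10.5 and 9.15 against 130.4 and 86.6 CPM, 3.44 ± 0.26). It also rose in the corpus cavernosum (2.80 ± 0.35), distal glans (1.83 ± 0.44), osteogenic mesenchyme (1.28 ± 0.25) and red blood cells (2.68 ± 0.45), and in the general prepuce it was at 5.97 and 2.02 against 4.11 and 3.54 CPM. The distal glans call was lost without the first control or the first ablated library, with DESeq2 and under every other clustering. Its paralog *Stc2* moved the other way. It fell in the periurethra (23.8 and 37.1 against 9.24 and 2.71 CPM, -2.49 ± 0.44, adjusted p = 0.0111), corpus cavernosum (-2.98 ± 0.63) and subdermal prepuce (18.4 and 32.4 against 7.34 and 3.18 CPM, -2.32 ± 0.43, adjusted p = 0.00415). With DESeq2 the corpus cavernosum calls of *Stc1* and *Stc2* and the osteogenic call of *Stc1* were lost. The corpus cavernosum call of *Stc2* was also lost without the second control or second ablated library. Its log2 fold change there was -4.17 to -2.335 over the 4 omissions of 1 library. Earlier results of these data were known for *Stc1* and *Socs2*, so their place in the list is not independent and they are given without p-values. For this reason nothing is read from the 30 called pairs against the share of all pairs.

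Other secreted regulators changed in fewer tissues. *Htra1*, a serine protease that cleaves binding proteins, fell in the corpus cavernosum (343 and 313 against 204 and 179 CPM, -0.78 ± 0.14, adjusted p = 0.00185), the distal glans (-1.67 ± 0.28) and the subdermal prepuce (135 and 166 against 54.3 and 68.8 CPM, -1.29 ± 0.20, adjusted p = 0.00141). The distal glans call was lost with DESeq2, at resolutions 0.4 and 1.2 and with clustering without the members. The metalloprotease *Adam12*, also known to cut binding proteins, fell in the subdermal prepuce (11.5 and 26.9 against 5.14 and 2.55 CPM, -2.37 ± 0.52, adjusted p = 0.0111). *Igfbp6*, which prefers IGF2, rose in the corpus cavernosum (7.12 and 3.68 against 18.95 and 13.5 CPM, 1.58 ± 0.36, adjusted p = 0.0081) and subdermal prepuce (17.9 and 16.3 against 41.9 and 42.7 CPM, 1.31 ± 0.22, adjusted p = 0.00253). *H19*, the noncoding RNA of the imprinted *Igf2* locus, fell in the corpus cavernosum (639.9 and 739.9 against 369 and 445 CPM, -0.76 ± 0.14, adjusted p = 0.00213), the tissue in which *Igf2* was also lower. In the subdermal prepuce, which held the most *H19*, it was at 1087 and 1049 against 948 and 961 CPM.

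*Socs2*, a feedback inhibitor of growth hormone signalling that is induced by it, fell in all 6 mesenchymal populations and in proliferative cells. In the distal glans it was at 33.2 and 56.7 CPM in controls and 8.02 and 10.4 CPM after ablation (-2.21 ± 0.26). In the subdermal prepuce it was at 23.6 and 43.7 against 8.81 and 5.73 CPM (-2.24 ± 0.39). The general prepuce had 21.7 and 39.4 against 9.90 and 7.66 CPM (-1.78 ± 0.32). With DESeq2 the corpus cavernosum and periurethra calls were lost. Without the second control library the periurethra and general prepuce calls were lost. Over the 4 omissions of 1 library their log2 fold changes were -3.00 to -1.55 and -2.10 to -1.23. The general prepuce call was also lost with thinning, without the upper UMI limit and without the highest doublet scores. *Socs2* was not lower in mast cells, where it was most abundant (86.4 and 222 against 352 and 324 CPM, not called). *Ghr*, the growth hormone receptor, rose in the periurethra (121 and 96.99 against 309.5 and 312 CPM, 1.51 ± 0.16, adjusted p = 0.000618), and less in the distal glans (0.71 ± 0.16), osteogenic mesenchyme (0.76 ± 0.19) and corpus cavernosum (0.57 ± 0.16). These 3 calls were lost with thinning and held in 3, 1 and 2 of 4 omissions of 1 library, at log2 fold changes of 0.54 to 0.95. The adaptor *Irs2*, which relays IGF and insulin signals, rose in the distal glans (17.2 and 15.5 against 40.1 and 41.9 CPM, 1.32 ± 0.19, adjusted p = 0.0013) and osteogenic mesenchyme (24.3 and 18.3 against 53.1 and 56.5 CPM, 1.34 ± 0.22, adjusted p = 0.00408). *Jak2*, the kinase of the growth hormone receptor, rose in the distal glans (16.04 and 23.8 against 39.1 and 33.5 CPM, 0.89 ± 0.21, adjusted p = 0.0258), a call lost without the first control or first ablated library (0.59 to 1.15 over the 4 omissions). The test of differences between populations did not call *Socs2* and called *Ghr* (adjusted p = 0.000112).

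**Figure D5:**
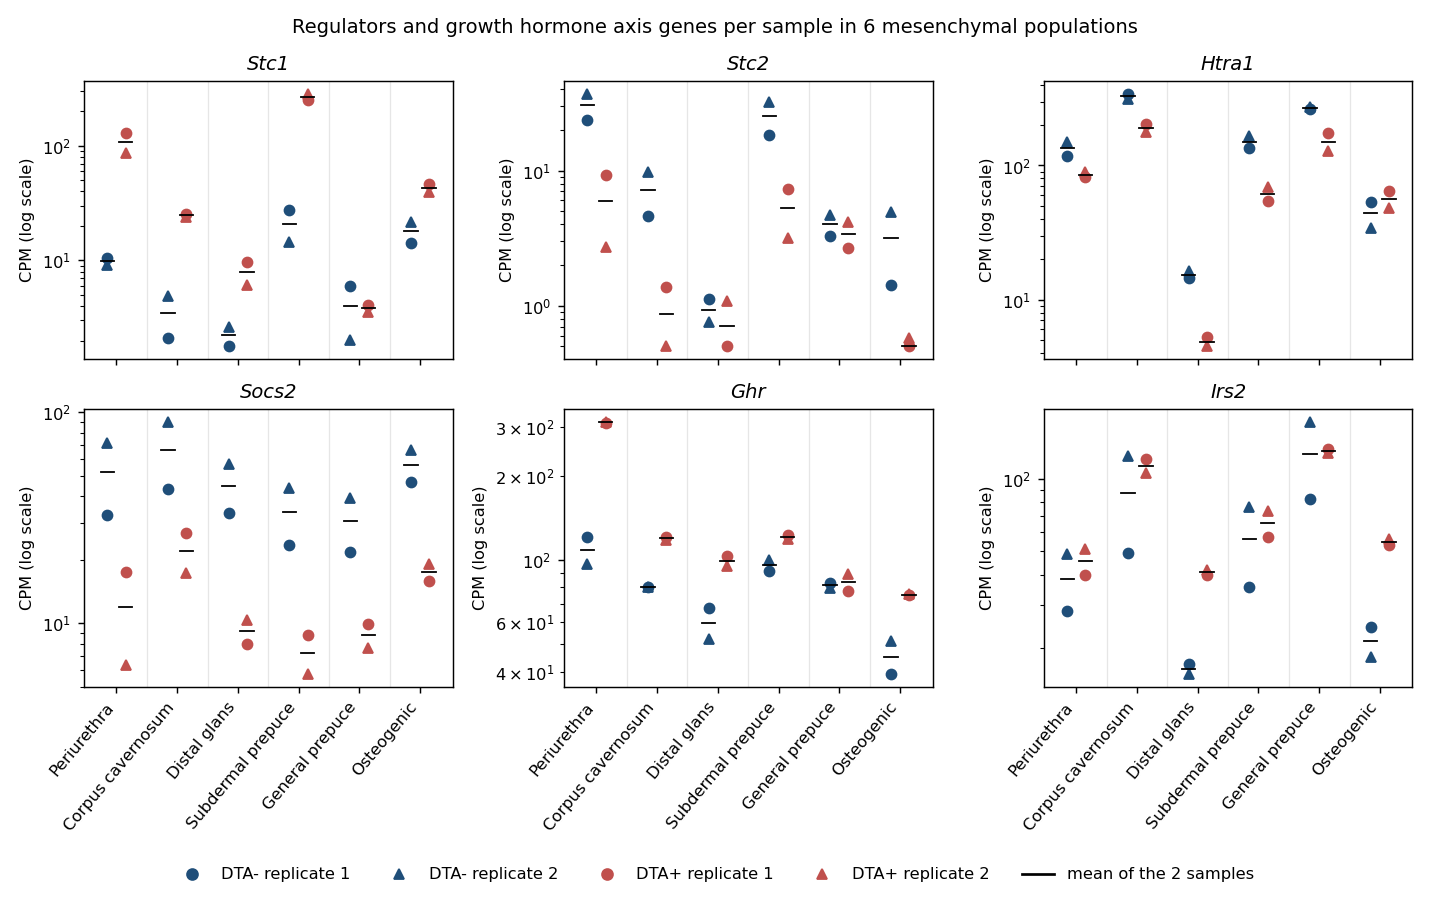
CPM (log scale) of *Stc1*, *Stc2*, *Htra1*, *Socs2*, *Ghr* and *Irs2* per library in the 6 mesenchymal populations, controls in blue and ablated in red, with a bar at the mean of each pair and values under 0.5 CPM drawn at 0.5. *Socs2* is lower in both ablated libraries of every population, and *Stc1* is higher in all but the general prepuce.

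Genes induced by glucocorticoids also differed between the genotypes in most of the mesenchymal populations. The summed level of the 6 genes on that list was 255 and 299 CPM in controls and 136 and 149 CPM in ablated penises over all cells, with 4 of 6 lower without overlap. In the periurethra it was 352 and 434 CPM against 141 and 122 CPM, with 6 of 6 lower, and in the subdermal prepuce 361 and 378 CPM against 142 and 157 CPM, with 4 of 6 lower. The osteogenic mesenchyme had 327 and 305 CPM against 173 and 217 CPM, with 4 of 6 lower. In the corpus cavernosum it was 141 and 154 CPM against 112 and 108 CPM, with 3 of 6 lower and 1 higher. The general prepuce had 284 and 367 CPM against 158 and 169 CPM. In the distal glans the values overlapped, at 158 and 182 CPM against 156 and 162 CPM. Markers of other tissues also moved. In the periurethra, those of the general prepuce summed to 627 and 543 CPM in controls and 1585 and 1358 CPM after ablation, with 5 of 6 higher without overlap, and those of the subdermal prepuce to 345 and 443 against 856 and 534 CPM, with 3 of 7 higher. In the distal glans the proliferative markers summed to 237 and 264 against 86.9 and 132 CPM, with 7 of 7 lower. The share of all genes without overlap was not computed for these populations, so nothing is read from the counts of genes without overlap. The part of these shifts in the IGF axis was not tested.

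The genes whose control levels were most like those of a member over the 15 named populations were named by Pearson's r of log2(CPM + 1), as a description. The points share libraries and depth. *Igf2* was most like *Mn1* (r = 0.93), its neighbour *H19* (r = 0.91) and *Arsj* (r = 0.87), and *Igf1* like *Mertk* (r = 0.80), *Sesn1* (r = 0.78) and *Gm266* (r = 0.77). *Igf1r* was most like *Ctr9* (r = 0.95), *Mynn* (r = 0.94) and *Lrch2* (r = 0.94). Among binding proteins, *Igfbp2* went with *Ptprd* (r = 0.93), *Isl1* (r = 0.92) and *Sulf1* (r = 0.90). *Igfbp3* went with *Plcb1* (r = 0.88), *Ccn3* (r = 0.86) and *Il17rd* (r = 0.86), and *Igfbp4* with *Zfp423* (r = 0.94), *Sned1* (r = 0.88) and *P4ha3* (r = 0.85). *Igfbp5* went with *Slc4a3* (r = 0.95), *Gria3* (r = 0.89) and *Sema3d* (r = 0.88), and *Igfbp7* with *Bcar1* (r = 0.91), *Msantd2* (r = 0.89) and *Ldb2* (r = 0.88). *Pappa* was most like *Pard3b* (r = 0.96), *Dnm3* (r = 0.92) and *Col25a1* (r = 0.91), and *Pappa2* like *Tcf7l2* (r = 0.90), *Grm7* (r = 0.90) and *Col8a2* (r = 0.89). Within the members the closest pair was *Igf2* and *Igfbp3* (r = 0.82), and the least alike were *Igf1* and *Igfbp7* (r = -0.25).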

How the data were processed

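Penises of embryos at embryonic day 16.5 were dissociated and loaded on the 10x 3' system, and all libraries were sequenced in 1 pool. The authors deposited UMI counts per gene and cell, made with Cell Ranger (version 4.0.0 in the submitters' processing notes) on mm10 with the tdTomato sequence added. The deposited counts were taken as they stood.

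Cells with over 1000 and under 7500 UMIs, at most 25% mitochondrial, 25% Hba and 50% Hbb UMIs were kept, clustered jointly with Seurat 5.3.0 (2000 variable genes, 30 components, resolution 0.8) and named when at least 3 fixed markers were enriched. A doublet caller marked 0 or 1 cells per library and had not worked, so doublets stayed in and leaving out the highest scores was an alternative. Counts were summed per library and population with at least 20 cells in every library. Each population was fitted on its own in edgeR 4.0.16: genes passing filterByExpr were scaled by TMM, genotypes compared by the quasi-likelihood test, and p-values adjusted by Benjamini-Hochberg over all of them, and differences between populations with an F test of the interaction. DESeq2 1.42.0 was an alternative, as were other clusterings, thinning and omissions. With 2 libraries per group a permutation test cannot go below p = 0.333 and was not used. The fitting code was tested on simulated data. Totals of 50779551 to 73577028 UMIs per library and of a few UMIs for low genes set the precision, which intervals of counting error do not cover between animals.

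The members and gene lists were chosen with earlier results of these data known. All members, every other pathway gene called in a named population, and the 3 genes most like each member (control mean of at least 20 CPM in some population) are named. Unnamed clusters are given with their leading genes, of which 1 is not reported here.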

Additional observations from a re-analysis of the deposited data

Results flagged for a closer look

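The fit of the interaction between genotype and population found differences in response between the 6 mesenchymal populations for all 10 members and for 8 of 21 other pathway genes, against 11.1% of all genes tested. With the subdermal prepuce left out, 9 members and 4 other genes were still called (5.11% of all genes), and without the second control library 3 members were. The size of each difference is given as the highest minus the lowest log2 fold change over these populations. Because the members were chosen on this contrast, their values are a description.

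Among the members it was 3.10 for *Igfbp3*, 2.98 for *Igfbp5*, 1.72 for *Pappa*, 1.65 for *Pappa2*, 1.49 for *Igfbp7*, 1.45 for *Igf1*, 1.31 for *Igfbp2*, 1.18 for *Igfbp4*, 1.06 for *Igf1r* and 0.87 for *Igf2*. Among the other genes it was 3.62 for *Stc1*, 2.41 for *Adam12*, 2.36 for *Igfbp6*, 1.98 for *Htra1*, 1.48 for *Ghr*, 1.31 for *Jak2*, 1.06 for *Igf2r* and 0.99 for *Plagl1*.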

How the results depend on the processing

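The called pairs of a member and a named population (34) stayed between 25 and 42 under every alternative run, with 33 to 41 when 1 library was left out, where the lone library is assumed to vary like those of the other group. Over all alternatives, 442 values of the 29 mesenchymal member pairs were recomputed, of which 394 were still called, 47 were not and 1 reversed: *Pappa2* in the subdermal prepuce, 0.75 at resolution 0.4. There *Adam12* also reversed, to 0.069. At that resolution the name subdermal prepuce fell on 338 and 825 control and 301 and 655 ablated cells. In the main clustering it held 725 and 1254 control and 453 and 450 ablated cells. The 2 settings thus compare different sets of cells under 1 name, and the cause of the reversals was not tested. Other pathway pairs (30) fell to 18 with DESeq2 and 19 with thinning, and ranged from 23 to 37 with 1 library left out. Members called over all cells (1) were 7 with the likelihood ratio test, 7 with DESeq2, 6 without the filter on low counts, 2 without the highest doublet scores, 3 with thinning and 1 to 4 with 1 library left out. Members whose response differed between populations (10) were 6 at resolution 0.4, where 4 populations were left, and 3 to 9 with 1 library left out. The control population with the highest level was the same for 6 of 10 members without the upper UMI limit, for 6 at resolution 0.4 and for 6 with clustering without the members. The labels do not say that same-numbered libraries belong together. Deviations of same-numbered libraries correlated at -0.234 over 15977 genes. With 2 libraries per group, crossing the numbers only turns the sign of this value, so it cannot show whether they mark a pairing. With the number as a replicate block, 35 member pairs, 32 other pairs and 6 members over all cells were called. The crossed block, chosen after seeing the data, called 42, 41 and 7. Genes called for a differing response numbered 1425, with 2343 by likelihood ratio, 2296 without the filter, 626 at resolution 0.4, 915 at 1.2, 583 with thinning, 646 without the subdermal prepuce and 229 to 998 with 1 library left out. Under the name subdermal prepuce, which fell on a different set of cells in each clustering, *Igf1* was at -0.19 at resolution 0.4 against -2.11. *Igfbp6* was at 0.34 under that name with clustering without the members, against 1.31. Depth limits *Pappa* and *Pappa2*, and small populations outside the mesenchyme.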
